A study of Homo sapiens with 27 samples.

Results

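Amino acid transporters of the plasma membrane and the lysosome were followed in Panc1, a line established from a human pancreatic ductal adenocarcinoma. The set holds 32 genes of the solute carrier families SLC1, SLC3, SLC6, SLC7, SLC16, SLC36, SLC38 and SLC43. They were chosen by name and by what they carry, with earlier results of these data known. All 32 had a row in the deposited count table of 21487 genes, and 27 passed a filter on low counts and were tested. The remaining 5, named further on, had 1 to 130 counts over all 27 libraries. RNA came from 3 genotypes: ARNT knockout clone A, ARNT knockout clone B, both made with CRISPR-Cas9, and parental cells. Each was kept for 48 hours in hypoxia (1% O2) with TIFM, in hypoxia with regular medium (DMEM with serum and antibiotics), or in normoxia (20% O2) with regular medium, with 3 replicates in each of the 9 groups. TIFM is a medium modelled on the nutrient content of pancreatic tumour interstitial fluid, and it was used under hypoxia only. ARNT is the shared partner of the oxygen-regulated subunits of the hypoxia-inducible factors (HIF). Each knockout group is a single clone, so clone and knockout cannot be told apart within a clone. The labels do not say whether replicates were separate cultures, so the p-values measure the spread between these libraries only.

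Amino acids cross membranes through carriers that differ in what they accept and in what drives them. Exchangers such as SLC7A5, which works as a dimer with the heavy chain SLC3A2, swap an amino acid inside the cell for another outside. Sodium-coupled carriers such as SLC38A2 and SLC1A5 take up neutral amino acids such as glutamine, and lysosomal carriers such as SLC38A9 link the amino acids of that compartment to mTORC1, a kinase complex that controls growth. Many of the plasma membrane genes are known targets of ATF4, the factor of the amino acid response, which is made when amino acids run short, and several are known to be raised in pancreatic and other tumours.

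Libraries held 26057022 to 38341713 counts (median 31727174). Levels below are counts in each library after scaling to the same total with TMM factors (CPM), and changes are log2 fold changes ± SE from edgeR's quasi-likelihood test over 13943 genes. Group means are given ± SD (n = 3 libraries), and gene positions are those of GENCODE 29 on GRCh38. A change is called where the adjusted p (Benjamini-Hochberg) was under 0.05. ARNT transcript was present in all groups (group means 48.8 to 75.5 CPM), so its level does not check the knockout. In bulk RNA, fewer cells that express a gene and less RNA of it per cell cannot be told apart. Among 8 known hypoxia-induced genes, VEGFA and CA9 included, hypoxia raised 4 in clone A, 6 in clone B and 8 in parental cells. The response was below the parental one for 7 of them in clone A and for 8 in clone B. Clone A in TIFM stood apart by its spread: its biological coefficient of variation was 29.3%, against 4.52% to 17.4% in the other 8 groups, and its TMM factors were 0.777 to 0.890. Each gene's p-values and SEs rest on a spread estimate shared by all groups in the fit, not on the groups compared alone. Summed levels of 19 markers of immune, endothelial, acinar, endocrine and other cells were 175 to 308 CPM in clone A in TIFM and 89.0 to 184 CPM in the other groups. Almost all of this was CD68, a lysosomal protein of macrophages. Without it the sums were 3.64 to 15.1 CPM, with 3 to 7 of the other 18 markers at 0 in each group. The 8 markers of the line mix epithelial genes such as KRT8 with mesenchymal genes such as VIM, so their medians can join opposite changes. Of the 8, 2 were higher and 5 lower than in parental cells in clone A in normoxia (median log2 difference −0.92), and 0 were higher and 1 lower in clone B (−0.25). In hypoxia 1 was higher and 5 lower in clone A (−1.38), and 0 were higher and 2 lower in clone B (−0.10). In hypoxic TIFM 0 were higher and 5 lower in clone A (−0.42), and 1 was higher and 6 lower in clone B (−0.77). Their part in the members' differences between genotypes was not tested. KRT8 and VIM, 2 of the 8, averaged 1175 and 5717 CPM in clone A, 3648 and 4595 CPM in clone B, and 4431 and 3680.5 CPM in parental cells in normoxia.

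The C/EBP-ATF composite element, the DNA motif bound by ATF4 with a C/EBP partner, was looked for in RefSeq promoter windows (GRCh38.p14, 250 bases before to 50 after each annotated start). With the letters TGATGNAA on both strands, it was found in 6 of the 25 members with a window and in 4.46% of all 27305 genes with one. Counted by window, it stood in 6 of the members' 46 windows and in 3.62% of all 35116. The 6 were SLC1A3, SLC1A4, SLC1A5, SLC3A2, SLC7A1 and SLC38A1, and 5 of them are shown because all 5 were higher in TIFM in each genotype. SLC7A5 was also higher in TIFM in each genotype and had no match in its window. Capitals mark the match, which is a description of the sequence and not evidence of binding. The stretches lie at chr2:64989269-64989418 (plus strand), chr19:46784795-46784944 (minus), chr13:29595669-29595818 (minus), chr12:46266497-46266646 (minus) and chr11:62881714-62881743 (plus), and all but that of SLC7A1 belong to annotated starts inside the GENCODE gene bounds.
SLC1A4: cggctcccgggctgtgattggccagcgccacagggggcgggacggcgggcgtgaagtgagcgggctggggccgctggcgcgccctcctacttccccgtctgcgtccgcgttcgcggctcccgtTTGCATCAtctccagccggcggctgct
SLC1A5: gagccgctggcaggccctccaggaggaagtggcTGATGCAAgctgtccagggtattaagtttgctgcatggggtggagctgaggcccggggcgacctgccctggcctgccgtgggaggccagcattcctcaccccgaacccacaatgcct
SLC7A1: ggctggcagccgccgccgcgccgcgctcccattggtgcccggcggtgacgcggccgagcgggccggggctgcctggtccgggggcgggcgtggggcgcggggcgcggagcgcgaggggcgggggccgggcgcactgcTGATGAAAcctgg
SLC38A1: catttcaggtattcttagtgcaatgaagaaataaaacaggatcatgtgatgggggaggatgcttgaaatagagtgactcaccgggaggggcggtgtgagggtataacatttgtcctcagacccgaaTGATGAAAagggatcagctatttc
SLC3A2: ctgaagtaatgtgcaggactccTTACATCA
The match read TGATGCAA on 1 strand or the other at SLC1A4 and SLC1A5, and TGATGAAA at SLC7A1 and SLC38A1. The HIF core letters ACGTG stood in windows of 15 of the 25 members and of 24.9% of all genes, and GCGTG in 19 of the 25 and in 40.6%. The E-box CACGTG, which overlaps ACGTG, stood in 8 of the 25 and in 8.77%. Members often had several windows, and each window adds to the chance of a match.

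Hypoxia changed 14 of the 27 tested members in parental cells, which is 51.9% of them against 30.2% of all genes tested. It raised 11, where 15.4% of all genes rose, and lowered 3, where 14.9% fell. SLC6A6, the taurine transporter, rose most (2.48 ± 0.22), followed by the system A carrier SLC38A4 (1.47 ± 0.27), the glycine transporter SLC6A9 (1.28 ± 0.18), the system A carrier SLC38A2 (1.25 ± 0.30) and SLC7A7 (1.15 ± 0.29). In clone A hypoxia raised 6 members and lowered 1 (25.9%, against 22.2% of all genes, 10.4% higher and 11.8% lower). In clone B it raised 5 and lowered 0 (18.5%, against 9.3% of all genes, 4.46% higher and 4.84% lower). At an unadjusted p under 0.05 edgeR found 7 higher and 0 lower in clone B, and the share of all genes there was not counted. DESeq2 called 6 higher and 0 lower, against 1758 of 13558 genes. With only the libraries compared in the fit, edgeR called 4242 of 13012 genes for hypoxia in clone B, and the members' count is given at the end. The median change of the tested members was −0.06 in clone A, 0.08 in clone B and 0.45 in parental cells, and those of all genes were −0.00536, −0.0147 and −0.00223. SLC6A6, SLC36A4, SLC38A2 and SLC38A4 passed the test in each of the 3 genotypes.

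The hypoxia response itself differed from that of parental cells for 4 members in clone A, each with a smaller or opposite change (14.8%, against 6.23% of all genes, 2.19% higher and 4.04% lower), and for 4 in clone B, again each lower (14.8%, against 4.73%, 1.49% higher and 3.24% lower). SLC1A4, SLC6A6 and SLC7A1 were called in both clones, SLC7A5 in clone A and SLC6A9 in clone B. At an unadjusted p under 0.05, 1 member was higher and 7 lower in clone A, and 1 higher and 5 lower in clone B. The share of all genes at that threshold was not counted. With only the libraries compared in the fit, 1 was called higher and 7 lower in clone A, and 2 higher and 6 lower in clone B. The higher ones were SLC36A1 (0.45 in clone A, 0.55 in clone B) and, in clone B, SLC43A2 (0.54). Of all genes, these fits called 2656 of 13374 in clone A, 47.9% of them higher, and 2592 of 13549 in clone B, 44.4% of them higher. These comparisons share the parental libraries. Between the clones, no member's hypoxia response was called as different by edgeR, with 0% of all genes called. At an unadjusted p under 0.05, 1 member differed, SLC7A7. That comparison was added after the data were seen.

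**Figure D1:**
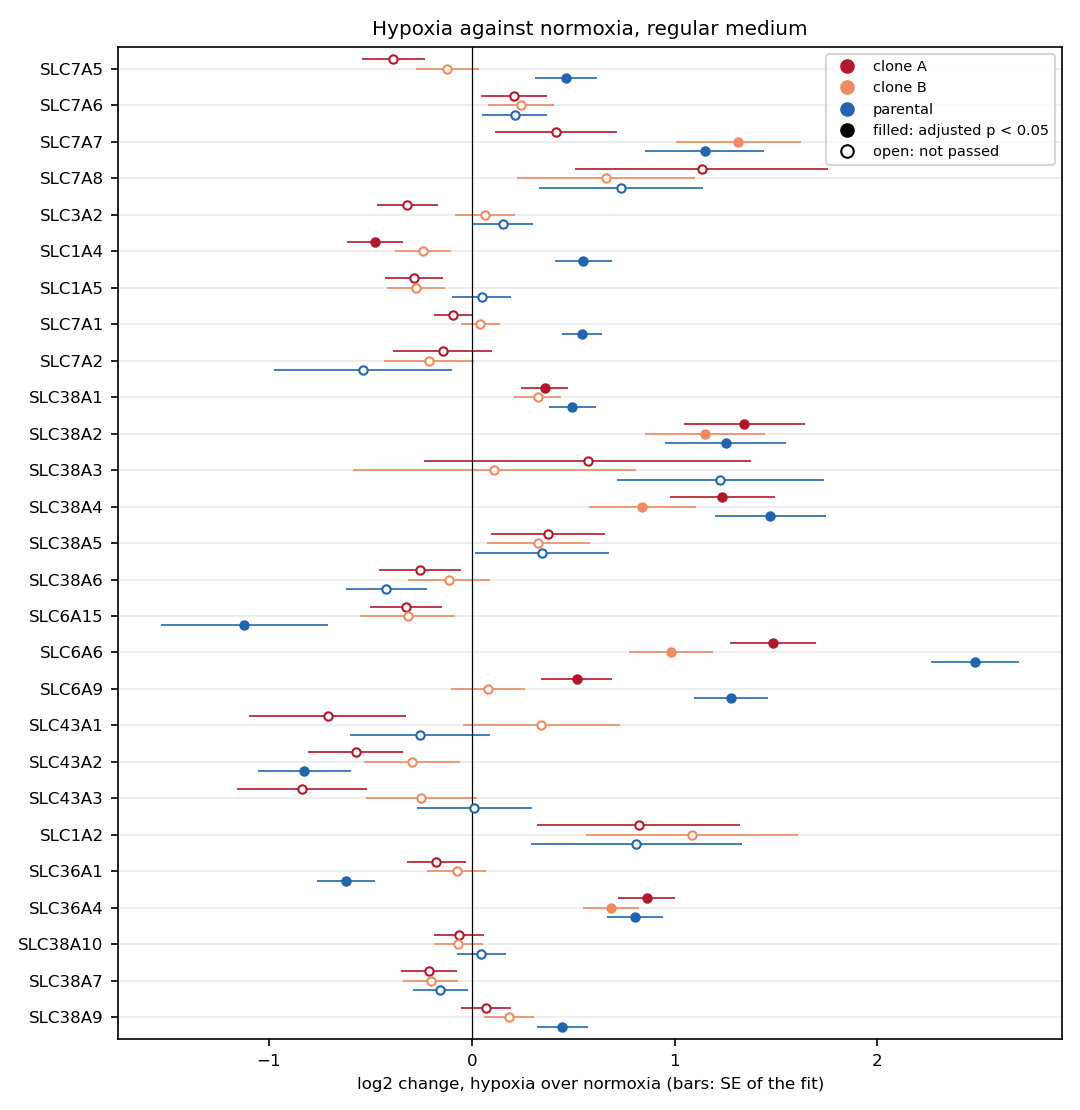
Log2 change of the tested amino acid transporters in hypoxia against normoxia in clone A, clone B and parental cells; bars are SEs, and filled points passed the test (adjusted p under 0.05). SLC6A6 stands at 1.48, 0.98 and 2.48 in clone A, clone B and parental cells, while SLC38A2 lies between 1.15 and 1.34 in the 3 genotypes.

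Against regular medium under hypoxia, TIFM raised 13 and lowered 7 in clone A (74.1%, against 67.2% of all genes, 33% higher and 34.2% lower). It raised 14 and lowered 6 in clone B (74.1%, against 53.7%, 25.9% higher and 27.9% lower), and raised 11 and lowered 7 in parental cells (66.7%, against 42.2%, 21.8% higher and 20.4% lower). SLC1A4, SLC1A5, SLC3A2, SLC7A1, SLC7A2, SLC7A5, SLC38A1 and SLC6A15 rose in each genotype. SLC6A6, SLC38A6, SLC38A7 and SLC38A10 fell in each. The TIFM response differed from that of parental cells for 10 members in clone A, 6 more positive and 4 more negative (37%, against 38.9% of all genes, 19.3% higher and 19.6% lower), and for 4 in clone B, 1 more positive and 3 more negative (14.8%, against 10.4%, 4.06% higher and 6.34% lower). Between the clones it differed for 10 members, 6 more positive in clone B and 4 more negative (37%, against 40%, 18.8% higher and 21.3% lower), in a comparison added after the data were seen.

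**Figure D2:**
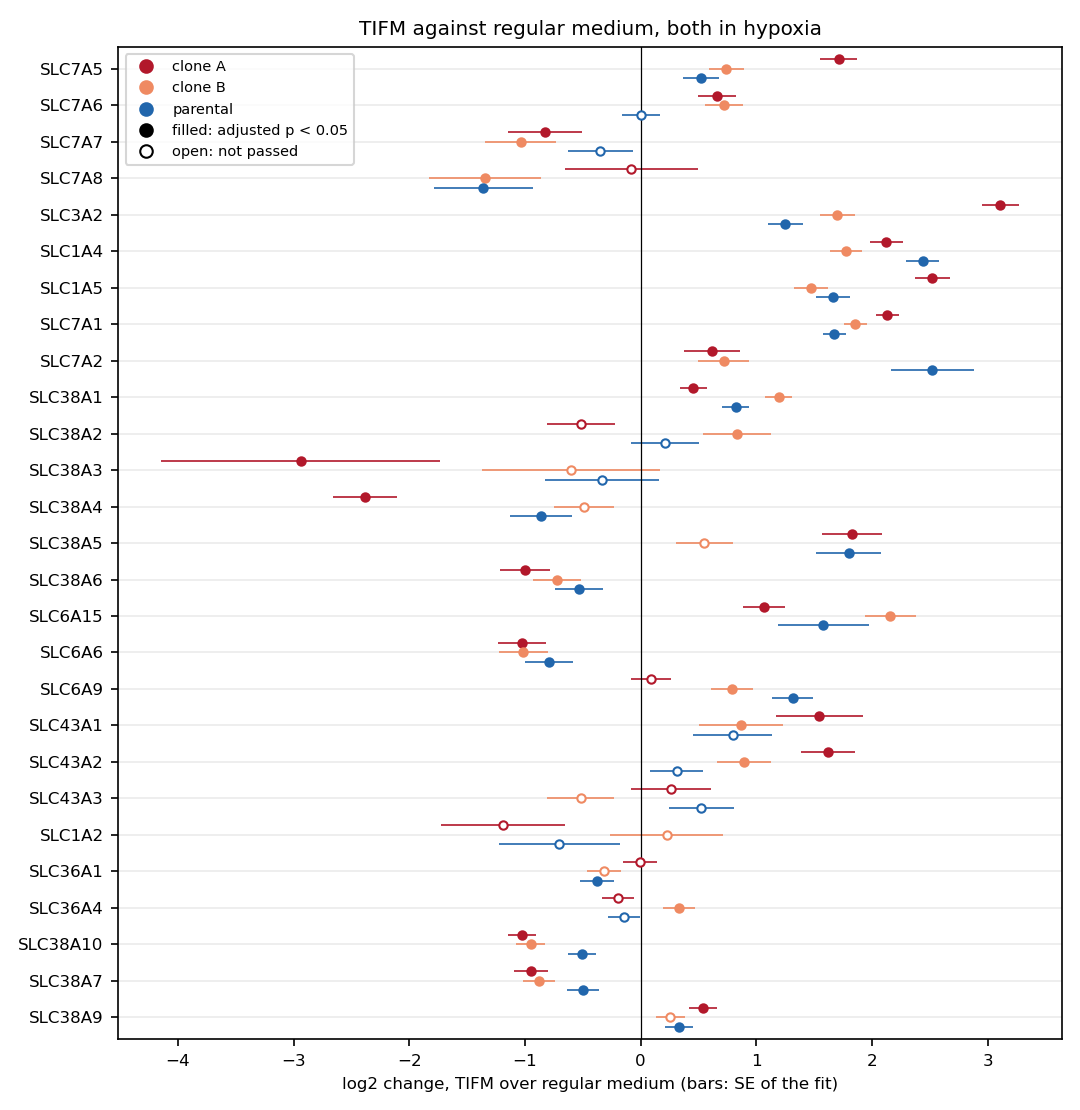
Log2 change of the tested amino acid transporters in hypoxic TIFM against hypoxia with regular medium in clone A, clone B and parental cells; bars are SEs, and filled points passed the test. SLC3A2 reached 3.11 in clone A, against 1.70 in clone B and 1.25 in parental cells, and SLC38A10 lay below 0 in all 3.

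The clones differed from parental cells before any change of oxygen or medium. In normoxia 10 members were higher and 3 lower in clone A (48.1%, against 31.6% of all genes, 15.9% higher and 15.8% lower), and 8 were higher and 5 lower in clone B (48.1%, against 26.5%, 13.2% higher and 13.3% lower). In hypoxia 10 were higher and 5 lower in clone A (55.6%, against 41.4%, 20.5% higher and 20.9% lower), and 3 were higher and 5 lower in clone B (29.6%, against 35.9%, 16.9% higher and 19% lower). In hypoxic TIFM 11 were higher and 8 lower in clone A (70.4%, against 61.7%, 30.9% higher and 30.7% lower), and 4 were higher and 9 lower in clone B (48.1%, against 47.5%, 22.1% higher and 25.4% lower). Clone B also differed from clone A, in comparisons added after the data were seen: 3 members were higher and 6 lower in normoxia (33.3%, against 21.5%, 11.7% higher and 9.83% lower), 3 higher and 7 lower in hypoxia (37%, against 25.1%, 12.9% higher and 12.2% lower), and 6 higher and 12 lower in TIFM (66.7%, against 56.1%, 26.7% higher and 29.4% lower).

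**Figure D3:**
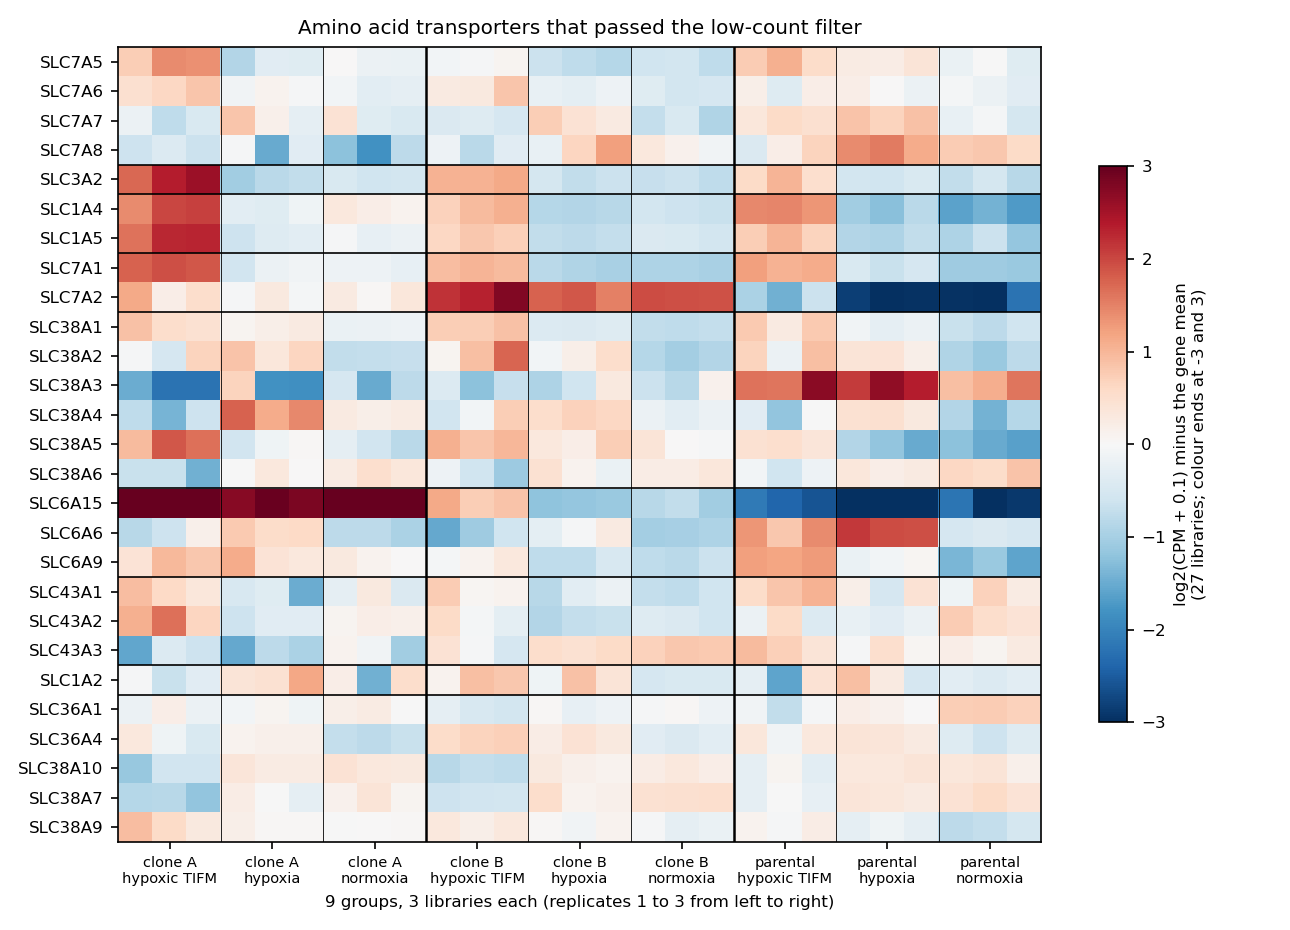
Levels of the 27 tested amino acid transporters in the 27 libraries, as log2(CPM + 0.1) minus each gene's mean over all libraries, with rows ordered by role and libraries by group. SLC6A15 and SLC7A2 separate the clones from parental cells, and the TIFM libraries stand out for SLC3A2, SLC1A4, SLC1A5 and SLC7A1.

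Levels of different members were compared per kilobase of annotated exon. In parental normoxia SLC38A2 was highest at 127 CPM per kilobase, followed by SLC7A5 at 55.4, SLC38A1 at 41.9 and SLC3A2 at 21.7. With the length of the longest transcript in place of all exons, the level moved by over 1 SD for 23 of the 27 members, so the order below the first few depends on the length used.

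SLC3A2 (chromosome 11, 62856102 to 62888875, plus strand), the heavy chain that carries several SLC7 light chains to the cell surface, was raised by TIFM in each genotype and most in clone A. It averaged 862 ± 242 CPM in TIFM and 99.7 ± 10.9 CPM in hypoxia in clone A, 379 ± 14.4 and 116 ± 9.14 CPM in clone B, and 297 ± 60.2 and 125 ± 5.40 CPM in parental cells. The changes were 3.11 ± 0.16 in clone A, 1.70 ± 0.15 in clone B and 1.25 ± 0.15 in parental cells. The clone A response exceeded the parental one by 1.86 ± 0.21 (adjusted p = 3.58e-07, edgeR), and that of clone B was −1.41 ± 0.21 relative to clone A. The 3 clone A TIFM libraries lay between 597 and 1071 CPM, above all 24 others. In normoxia the group means were 124 CPM in clone A, 111 in clone B and 112 in parental cells, and neither clone's difference nor any hypoxia response passed the test with all libraries in the fit. With only the libraries compared, edgeR called the hypoxia change in clone A (−0.29, adjusted p = 0.0169) and its difference from the parental response (−0.46, adjusted p = 0.0106).

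SLC7A5 (chromosome 16, 87830023 to 87869488, minus strand), the exchanger of leucine and other large neutral amino acids, had 496, 789 and 772 CPM in TIFM, 161, 233 and 233 CPM in hypoxia and 299, 262 and 259 CPM in normoxia in clone A. Clone B had 280.4, 291 and 312 CPM in TIFM, 191, 174 and 164 CPM in hypoxia and 196, 204 and 174 CPM in normoxia. Parental cells had 506, 620.1 and 438 CPM in TIFM, 354, 346 and 388 CPM in hypoxia and 259.9, 295 and 233 CPM in normoxia. Hypoxic libraries were all above the normoxic ones in parental cells and all below them in clone A, and in clone B they overlapped. Hypoxia changed SLC7A5 by 0.47 ± 0.15 in parental cells, a call lost without parental hypoxia replicate 3 or parental normoxia replicate 1 or 3, adjusted p up to 0.112, and the values were −0.39 ± 0.15 in clone A and −0.12 ± 0.15 in clone B, which did not pass. The clone A response was lower than the parental one, with a called difference of −0.85 ± 0.22 (adjusted p = 0.0163; lost without clone A normoxia replicate 1 or parental normoxia replicate 3, adjusted p up to 0.0582), and the clone B difference of −0.59 ± 0.22 did not pass (adjusted p = 0.14) but was called with only the libraries compared in the fit (−0.59, adjusted p = 0.00128). TIFM raised it by 1.71 ± 0.16 in clone A, 0.74 ± 0.15 in clone B and 0.52 ± 0.15 in parental cells, and the parental call was lost without parental hypoxic TIFM replicate 2, adjusted p up to 0.0679. In hypoxia SLC7A5 was lower than in parental cells, with a difference of −0.80 ± 0.15 in clone A and of −1.04 ± 0.16 in clone B. Other genes' exons cover 5.71% of its exon length.

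Among the other light chains, SLC7A6, which exchanges cationic for neutral amino acids, had 12.8, 13.9 and 16.2 CPM in TIFM and 8.50, 9.72 and 8.87 CPM in hypoxia in clone A. Clone B libraries had 11.1, 11.1 and 16.2 CPM in TIFM and 7.71, 7.41 and 8.11 CPM in hypoxia, and parental libraries had 10.3, 6.98 and 10.4 CPM in TIFM and 10.4, 9.18 and 8.01 CPM in hypoxia. In normoxia the libraries had 8.62, 7.31 and 7.51 CPM in clone A, 7.07, 6.18 and 6.37 CPM in clone B and 8.67, 8.07 and 7.13 CPM in parental cells. TIFM libraries exceeded the hypoxic ones without overlap in both clones (0.66 ± 0.16 in clone A and 0.72 ± 0.16 in clone B, both called) and overlapped them in parental cells (0.00 ± 0.16). The differences from the parental response were called at 0.66 in clone A (lost on leaving out any 1 of 4 of the 12 libraries, or with only the libraries compared in the fit, adjusted p up to 0.0854) and 0.72 in clone B (lost on leaving out any 1 of 7 of the 12 libraries, or with no low-count filter, or with only the libraries compared in the fit, adjusted p up to 0.131). Exons of other genes, with the largest part from SLC7A6OS, cover 55.6% of the SLC7A6 exon length, so the counts may belong to any of these genes. SLC7A7, of the same kind as SLC7A6, rose in hypoxia by 1.31 ± 0.31 in clone B and 1.15 ± 0.29 in parental cells and fell in TIFM, with a change of −0.82 ± 0.32 in clone A and of −1.04 ± 0.31 in clone B. The clone B hypoxia call was lost without clone B normoxia replicate 3, adjusted p up to 0.0522, and the clone A TIFM call was lost without clone A hypoxia replicate 1 or clone A hypoxic TIFM replicate 2 or 3, or with only the libraries compared in the fit, or with DESeq2, adjusted p up to 0.248. Its group means were low, 0.494 to 1.55 CPM. SLC7A8, a second exchanger of neutral amino acids, was lower than in parental cells, with a difference of −2.64 ± 0.55 in clone A in normoxia (0.0997 ± 0.0687 CPM in clone A, 0.657 ± 0.0619 CPM in parental cells). TIFM lowered it, with a change of −1.35 ± 0.48 in clone B (lost without clone B hypoxia replicate 3 or clone B hypoxic TIFM replicate 2, or with only the libraries compared in the fit, adjusted p up to 0.179) and −1.36 ± 0.43 in parental cells (lost without parental hypoxic TIFM replicate 1, adjusted p up to 0.0844). SLC3A1, the heavy chain of the cystine and dibasic carrier, had 1 count in all 27 libraries. Over the 9 group means, Pearson's r of SLC3A2 on the log2(CPM + 0.1) scale was 0.82 with SLC7A5, 0.88 with SLC7A6, −0.33 with SLC7A7 and −0.32 with SLC7A8, as a description of means that share genotypes and media.

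SLC1A4 (chromosome 2, 64988477 to 65023865, plus strand), the exchanger of alanine, serine and cysteine, responded to hypoxia differently in the clones and in parental cells. In clone A it had 135, 204 and 211 CPM in TIFM, 40.4, 39.3 and 46.4 CPM in hypoxia and 62.6, 58.6 and 54.3 CPM in normoxia. Clone B libraries had 82.4, 98.6 and 106 CPM in TIFM, 27.96, 27.3 and 28.5 CPM in hypoxia and 34.4, 32.9 and 31.8 CPM in normoxia. Parental libraries had 138, 140.01 and 127 CPM in TIFM, 24.4, 21.2 and 28.95 CPM in hypoxia and 16.6, 18.8 and 15.5 CPM in normoxia. All hypoxic libraries exceeded the normoxic ones in parental cells, and all lay below them in clone A and in clone B. Hypoxia changed SLC1A4 by −0.48 ± 0.14 in clone A, −0.24 ± 0.14 in clone B and 0.55 ± 0.14 in parental cells, of which the clone B value did not pass and the clone A call was lost without clone A hypoxia replicate 1 or 2 or clone A normoxia replicate 1, adjusted p up to 0.0635. The clone B value was called with only the libraries compared in the fit (−0.21, adjusted p = 0.0365). The difference from parental cells was −1.03 ± 0.20 in clone A (adjusted p = 0.00142, edgeR) and −0.79 ± 0.20 in clone B (adjusted p = 0.0163; lost without parental hypoxia replicate 3 or parental normoxia replicate 3, adjusted p up to 0.0696). In normoxia SLC1A4 was higher than in parental cells by 1.78 ± 0.14 in clone A and by 0.96 ± 0.14 in clone B. TIFM raised it in each genotype, by 2.13 ± 0.14 in clone A, 1.77 ± 0.14 in clone B and 2.44 ± 0.14 in parental cells.

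SLC1A5 (chromosome 19, 46774883 to 46788594, minus strand), the main glutamine exchanger of many tumour lines, had 299.6, 464 and 478 CPM in TIFM, 63.1, 74.5 and 78.6 CPM in hypoxia and 95.6, 81.6 and 86.6 CPM in normoxia in clone A. In clone B it had 151, 169.99 and 159.8 CPM in TIFM, 58.1, 56.2 and 59.1 CPM in hypoxia and 72.7, 70.5 and 66.3 CPM in normoxia. Parental values were 163, 199 and 154 CPM in TIFM, 53.3, 51.1 and 58.4 CPM in hypoxia and 51.5, 62.5 and 43.4 CPM in normoxia. TIFM libraries exceeded all hypoxic ones in each genotype, and no hypoxia response passed the test with all libraries in the fit (−0.29 ± 0.14 in clone A, −0.27 ± 0.14 in clone B, 0.05 ± 0.14 in parental cells). Hypoxic libraries lay below the normoxic ones in each clone, and edgeR called both falls with only the libraries compared (−0.26 in clone A, adjusted p = 0.0406; −0.25 in clone B, adjusted p = 0.0099). The TIFM change was 2.52 ± 0.15 in clone A, 1.47 ± 0.15 in clone B and 1.67 ± 0.15 in parental cells, and the clone A response exceeded the parental one by 0.86 ± 0.20 (adjusted p = 0.00167, edgeR). In normoxia it was higher than in parental cells by 0.74 ± 0.14 in clone A and by 0.41 ± 0.14 in clone B, the second call being lost on leaving out any 1 of 5 of the 6 libraries, adjusted p up to 0.209. Other genes' exons cover 23.8% of its exon length.

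SLC7A1 (chromosome 13, 29509410 to 29595688, minus strand), the main carrier of arginine and lysine, was also raised by TIFM throughout. Clone A had 821, 935 and 885 CPM in TIFM, 162, 216 and 224 CPM in hypoxia and 218, 219 and 204 CPM in normoxia. In clone B it had 459.7, 488 and 468 CPM in TIFM, 139, 129 and 124 CPM in hypoxia and 128, 128 and 124 CPM in normoxia. Parental cells had 566, 499.7 and 527 CPM in TIFM, 176, 152 and 171 CPM in hypoxia and 116, 115 and 111 CPM in normoxia. Hypoxic and normoxic libraries overlapped in both clones and did not in parental cells. TIFM raised SLC7A1 by 2.13 ± 0.10 in clone A, 1.86 ± 0.10 in clone B and 1.67 ± 0.10 in parental cells. Hypoxia raised it by 0.54 ± 0.10 in parental cells, with values of −0.09 ± 0.10 in clone A and of 0.04 ± 0.10 in clone B that did not pass. The hypoxia response was below the parental one, with a difference of −0.63 ± 0.14 in clone A (adjusted p = 0.00494, edgeR) and of −0.50 ± 0.14 in clone B (adjusted p = 0.0338), and the clone B call was lost on leaving out any 1 of 10 of the 12 libraries, or with no low-count filter, adjusted p up to 0.106.

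**Figure D4:**
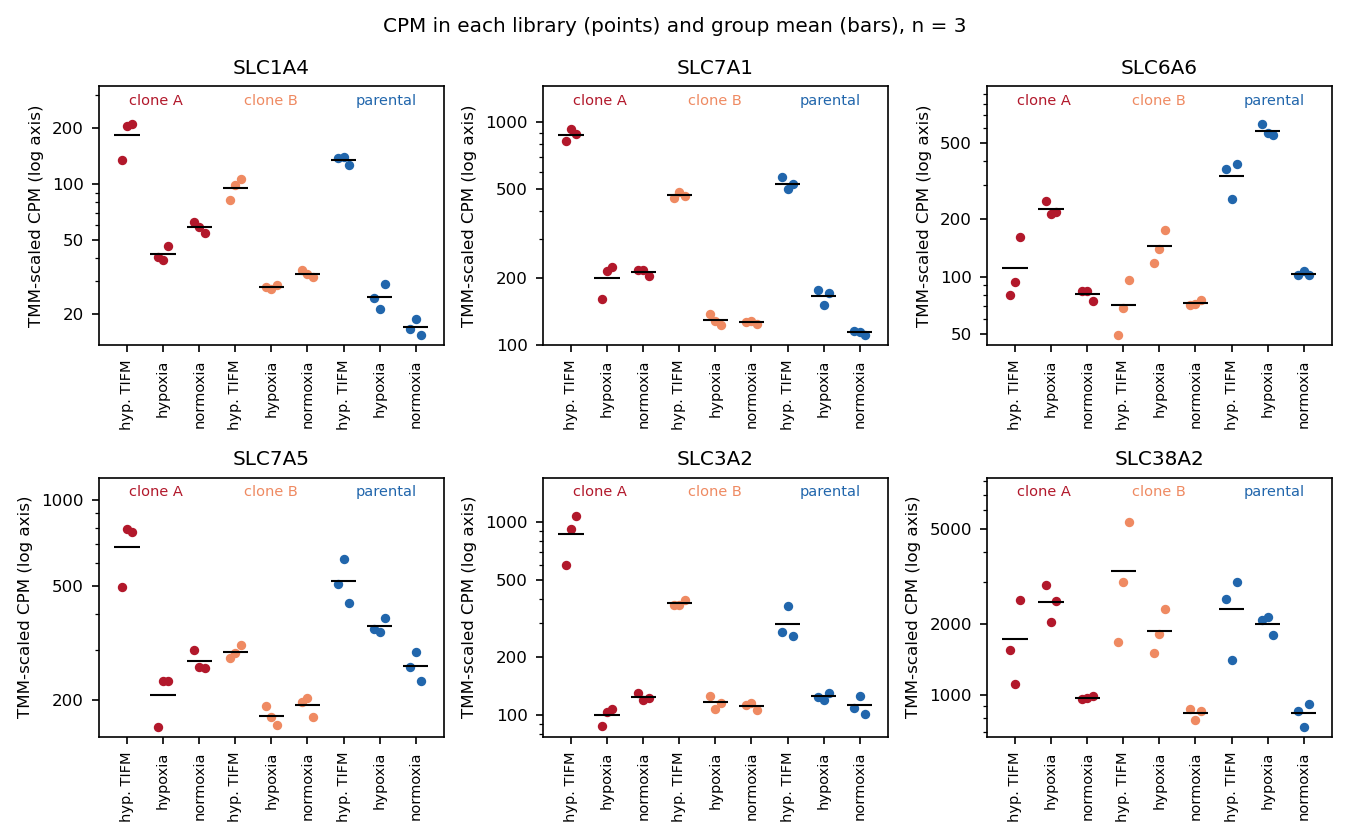
Levels in CPM (log scale) of 6 plasma membrane transporters in every library, with clone A, clone B and parental cells side by side, each in hypoxic TIFM, hypoxia and normoxia; points are libraries and bars are group means of 3. For SLC1A4 and SLC7A1 all parental hypoxic libraries exceed the normoxic ones, whereas in the clones they lie below them for SLC1A4 and overlap for SLC7A1, and SLC38A2 is higher in hypoxia than in normoxia in all 3 genotypes.

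SLC7A2, an inducible carrier of cationic amino acids, was one of the members that set the clones apart. Its libraries had 6.92, 3.54 and 4.49 CPM in TIFM, 3.03, 3.82 and 2.98 CPM in hypoxia and 3.74, 3.18 and 3.93 CPM in normoxia in clone A. Clone B had 14.1, 15.6 and 21.7 CPM in TIFM, 10.7, 11.5 and 8.96 CPM in hypoxia and 12.3, 11.96 and 11.9 CPM in normoxia. Parental cells had 1.56, 1.07 and 1.93 CPM in TIFM, 0.352, 0.126 and 0.309 CPM in hypoxia and 0.310, 0.253 and 0.587 CPM in normoxia. Every library of either clone exceeded every parental library of the same condition. The normoxic differences from parental cells were 3.24 ± 0.32 in clone A and 4.97 ± 0.31 in clone B. TIFM raised SLC7A2 by 0.62 ± 0.24 in clone A (lost without clone A hypoxia replicate 1 or 3 or clone A hypoxic TIFM replicate 1, or with only the libraries compared in the fit, adjusted p up to 0.303), 0.72 ± 0.22 in clone B (lost without clone B hypoxic TIFM replicate 3, adjusted p up to 0.0675) and 2.52 ± 0.36 in parental cells. On the log2 scale the response was below the parental one, with a difference of −1.90 ± 0.44 in clone A and of −1.80 ± 0.43 in clone B (adjusted p = 0.00135 and 0.00771, edgeR). The parental response started from 0.126 to 0.352 CPM in hypoxia, where a small gain in CPM is a large log2 change.

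Of the SLC38 carriers, SLC38A2, a sodium-coupled importer of small neutral amino acids, averaged 2478 ± 439 CPM in hypoxia and 977 ± 14.7 CPM in normoxia in clone A. It averaged 1874 ± 403 and 844 ± 47.7 CPM in clone B, and 2004 ± 178 and 841 ± 93.1 CPM in parental cells, in the same order. Hypoxic libraries exceeded all normoxic ones in each genotype. The changes of 1.34 ± 0.30 in clone A, 1.15 ± 0.30 in clone B and 1.25 ± 0.30 in parental cells all passed, and neither clone's difference from the parental response did (0.09 ± 0.41 in clone A, −0.10 ± 0.41 in clone B). The clone B call was lost on leaving out any 1 of 4 of the 6 libraries, adjusted p up to 0.092. TIFM libraries spread widely, averaging 1734 ± 719 CPM in clone A, 3341 ± 1854 CPM in clone B and 2315 ± 811 CPM in parental cells, and overlapped the hypoxic libraries in each genotype. The clone B TIFM change of 0.83 ± 0.30 passed but was lost without clone B hypoxia replicate 1 or 2 or clone B hypoxic TIFM replicate 3, or with only the libraries compared in the fit, adjusted p up to 0.347. The clone A TIFM change did not pass, but a fall was called without clone A hypoxic TIFM replicate 3 (−0.87, adjusted p = 0.0271, edgeR).

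SLC38A1, a glutamine importer of the same family, had 1239, 973 and 921 CPM in TIFM, 715, 759.7 and 809 CPM in hypoxia and 585, 591 and 603 CPM in normoxia in clone A. It had 1115, 1118 and 1228 CPM in TIFM, 505, 496 and 512 CPM in hypoxia and 400.01, 397 and 411 CPM in normoxia in clone B. Parental cells had 1163, 804 and 1167 CPM in TIFM, 626, 553 and 595 CPM in hypoxia and 425, 390.4 and 443 CPM in normoxia. Within each genotype the TIFM libraries lay above the hypoxic ones and these above the normoxic ones. TIFM raised it by 0.46 ± 0.12 in clone A (lost with only the libraries compared in the fit, adjusted p up to 0.0588), 1.19 ± 0.12 in clone B and 0.82 ± 0.12 in parental cells. Hypoxia raised it by 0.36 ± 0.12 in clone A (lost on leaving out any 1 of 5 of the 6 libraries, adjusted p up to 0.0991) and 0.50 ± 0.12 in parental cells, and the clone B value of 0.32 ± 0.12 did not pass. It was called with DESeq2 (0.35, adjusted p = 0.0307) and with only the libraries compared in the fit (0.35, adjusted p = 0.000163).

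SLC38A4, another system A carrier, had 3.61, 2.29 and 3.95 CPM in TIFM, 21.1, 13.3 and 16.9 CPM in hypoxia and 7.48, 7.02 and 7.29 CPM in normoxia in clone A. In clone B the libraries had 4.10, 5.77 and 10.4 CPM in TIFM, 8.89, 9.93 and 9.52 CPM in hypoxia and 5.41, 4.97 and 5.44 CPM in normoxia. In parental cells they had 4.82, 2.67 and 6.11 CPM in TIFM, 8.46, 8.57 and 7.62 CPM in hypoxia and 3.28, 2.25 and 3.37 CPM in normoxia. Hypoxic libraries exceeded the normoxic ones in each genotype, by 1.24 ± 0.26 in clone A, 0.84 ± 0.26 in clone B (lost on leaving out any 1 of the 6 libraries, adjusted p up to 0.139) and 1.47 ± 0.27 in parental cells. TIFM lowered SLC38A4, with a change of −2.38 ± 0.28 in clone A and of −0.86 ± 0.27 in parental cells (lost without parental hypoxic TIFM replicate 2, adjusted p up to 0.084), and the clone B value of −0.49 ± 0.26 did not pass. It was called without clone B hypoxic TIFM replicate 3 (−0.94, adjusted p = 0.00353). The TIFM response of clone A was below the parental one, with a difference of −1.52 ± 0.38 (adjusted p = 0.00277, edgeR), and that of clone B was above that of clone A by 1.89 ± 0.38.

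The system N carriers, which move glutamine and histidine, differed between the clones and parental cells in opposite directions. In normoxia SLC38A3 was lower than in parental cells, with a difference of −2.67 ± 0.68 in clone A and of −1.95 ± 0.61 in clone B, at 0.154 ± 0.0829 CPM in clone A, 0.256 ± 0.134 CPM in clone B and 1.00 ± 0.290 CPM in parental cells. The clone B call was lost without clone B normoxia replicate 1 or 2 or parental normoxia replicate 3, adjusted p up to 0.0885. SLC38A5 was higher by 1.08 ± 0.32 in clone A and by 1.82 ± 0.30 in clone B, at 0.767 ± 0.163 CPM in clone A, 1.28 ± 0.237 CPM in clone B and 0.360 ± 0.0655 CPM in parental cells. The clone A call was lost without clone A normoxia replicate 1, adjusted p up to 0.059. TIFM raised SLC38A5 by 1.83 ± 0.26 in clone A and by 1.80 ± 0.28 in parental cells, with a value of 0.55 ± 0.25 in clone B that did not pass but was called without clone B hypoxia replicate 3 (0.74, adjusted p = 0.0321). The clone B response was below the parental one, with a difference of −1.25 ± 0.38 (lost on leaving out any 1 of 7 of the 12 libraries, or with no low-count filter, adjusted p up to 0.104). SLC38A6 fell in TIFM, with a change of −0.9998 ± 0.22 in clone A, −0.72 ± 0.21 in clone B (lost without clone B hypoxia replicate 1, adjusted p up to 0.052) and −0.54 ± 0.21 in parental cells (lost on leaving out any 1 of 5 of the 6 libraries, adjusted p up to 0.175).

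SLC6A6 (chromosome 3, 14402576 to 14489349, plus strand), the sodium- and chloride-coupled importer of taurine, had the largest hypoxia change among the tested members in parental cells. In clone A it had 80.5, 93.1 and 160.2 CPM in TIFM, 248.8, 212 and 219 CPM in hypoxia and 83.7, 84.2 and 74.8 CPM in normoxia. Clone B had 49.6, 68.3 and 95.7 CPM in TIFM, 117, 139.8 and 174 CPM in hypoxia and 70.7, 71.8 and 75.7 CPM in normoxia. Parental cells had 363, 254 and 386 CPM in TIFM, 623, 562 and 549 CPM in hypoxia and 102, 106 and 102 CPM in normoxia. Hypoxic libraries exceeded all normoxic ones in every genotype, and parental hypoxic libraries exceeded those of both clones. Hypoxia raised SLC6A6 by 1.48 ± 0.21 in clone A, 0.98 ± 0.21 in clone B and 2.48 ± 0.22 in parental cells. The response was below the parental one, with a difference of −0.997 ± 0.29 in clone A (adjusted p = 0.0391, edgeR) and −1.499 ± 0.29 in clone B (adjusted p = 0.00208). The clone A call was lost on leaving out any 1 of 11 of the 12 libraries, adjusted p up to 0.0926. TIFM lowered SLC6A6, with a change of −1.03 ± 0.21 in clone A, −1.01 ± 0.21 in clone B and −0.79 ± 0.21 in parental cells.

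SLC6A9, the glycine transporter, had 18.8, 27.8 and 24.9 CPM in TIFM, 30.9, 18.7 and 17.6 CPM in hypoxia and 17.3, 15.3 and 14.3 CPM in normoxia in clone A. Clone B libraries had 13.7, 15.2 and 17.6 CPM in TIFM, 8.33, 8.30 and 10.2 CPM in hypoxia and 8.28, 8.02 and 9.04 CPM in normoxia. Parental libraries had 33.2, 32.3 and 34.5 CPM in TIFM, 12.2, 13.3 and 14.6 CPM in hypoxia and 5.42, 6.50 and 4.63 CPM in normoxia. Groups were ordered TIFM, hypoxia, normoxia without overlap in parental cells, while hypoxic and normoxic libraries overlapped in clone B and TIFM and hypoxic libraries overlapped in clone A. Hypoxia raised it by 0.52 ± 0.17 in clone A (lost without clone A hypoxia replicate 1 or clone A normoxia replicate 2 or 3, or with only the libraries compared in the fit, adjusted p up to 0.398) and 1.28 ± 0.18 in parental cells, with 0.08 ± 0.18 in clone B. The difference from the parental response was −1.20 ± 0.26 in clone B (adjusted p = 0.00504, edgeR), and −0.76 ± 0.25 in clone A did not pass (adjusted p = 0.0733). The clone A difference was called with DESeq2 (−0.75, adjusted p = 0.044), with only the libraries compared in the fit (−0.75, adjusted p = 0.0499), and without clone A hypoxia replicate 1 (−1.06, adjusted p = 0.00294) or parental normoxia replicate 2 (−0.90, adjusted p = 0.0493). TIFM raised it by 0.79 ± 0.18 in clone B and 1.32 ± 0.18 in parental cells. The clone A TIFM response was below the parental one, with a difference of −1.23 ± 0.25 (adjusted p = 0.000352).

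SLC6A15, an importer of branched-chain amino acids and proline, separated all 3 genotypes. Clone A had 62.98, 48.5 and 36.05 CPM in TIFM, 21.7, 25.5 and 23.2 CPM in hypoxia and 33.6, 27.3 and 27.4 CPM in normoxia. Clone B had 7.15, 5.44 and 5.89 CPM in TIFM, 1.32, 1.37 and 1.43 CPM in hypoxia and 1.75, 1.89 and 1.503 CPM in normoxia. Parental cells had 0.659, 0.534 and 0.445 CPM in TIFM, 0.201, 0.251 and 0.0843 CPM in hypoxia and 0.620, 0.253 and 0.340 CPM in normoxia. In each condition the clone A libraries lay above those of clone B, and these above the parental ones. In normoxia clone A exceeded parental cells by 6.19 ± 0.26 and clone B by 2.09 ± 0.29, while clone B was lower than clone A, with a difference of −4.10 ± 0.21. Hypoxia lowered it, with a change of −1.12 ± 0.41 in parental cells (lost without parental hypoxia replicate 1 or 3 or parental normoxia replicate 1, adjusted p up to 0.282), and TIFM raised it by 1.07 ± 0.18 in clone A, 2.16 ± 0.22 in clone B and 1.58 ± 0.39 in parental cells. SLC6A14, a carrier of broad specificity, had 7 counts over all libraries.

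**Figure D5:**
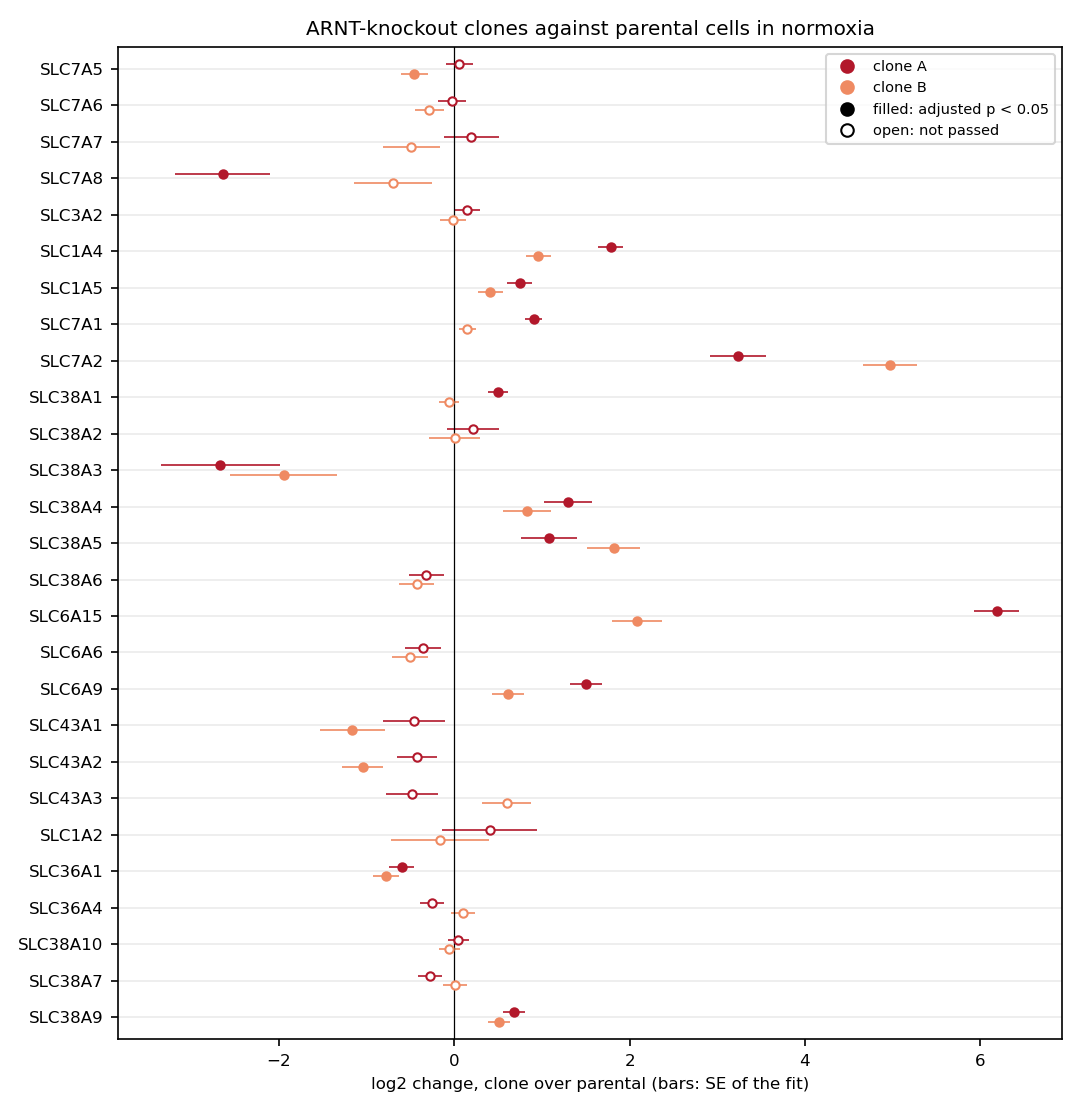
Log2 difference of the tested amino acid transporters from parental cells in clone A and clone B in normoxia, with SEs; filled points passed the test. In clone A SLC6A15 stands at 6.19, SLC7A2 at 3.24 and SLC38A3 at −2.67, while in clone B SLC6A15 stands at 2.09, SLC7A2 at 4.97 and SLC38A3 at −1.95.

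Among the SLC43 uniporters, SLC43A2, a facilitated carrier of large neutral amino acids, had 20.3, 30.7 and 15.2 CPM in TIFM, 6.25, 7.63 and 7.65 CPM in hypoxia and 10.2, 11.1 and 10.8 CPM in normoxia in clone A. It had 14.4, 9.35 and 7.93 CPM in TIFM, 5.18, 5.86 and 6.01 CPM in hypoxia and 7.41, 7.10 and 6.39 CPM in normoxia in clone B. Parental cells had 8.56, 14.4 and 7.23 CPM in TIFM, 8.26, 7.57 and 8.52 CPM in hypoxia and 16.4, 13.9 and 12.9 CPM in normoxia. Hypoxic libraries lay below the normoxic ones in each genotype, and with all libraries in the fit the parental change was called (−0.83 ± 0.23) and those of −0.57 ± 0.23 in clone A and of −0.29 ± 0.24 in clone B were not. The clone A change was called with only the libraries compared (−0.55, adjusted p = 0.00572). TIFM raised it by 1.62 ± 0.23 in clone A and by 0.90 ± 0.24 in clone B, and the clone A response exceeded the parental one by 1.31 ± 0.33 (adjusted p = 0.0026, edgeR). SLC43A1, of the same kind, rose in TIFM by 1.55 ± 0.38 in clone A and by 0.87 ± 0.36 in clone B, the second call being lost without clone B hypoxia replicate 1 or 2 or clone B hypoxic TIFM replicate 1, or with no low-count filter, or with the replicate block, or with only the libraries compared in the fit, or with DESeq2, adjusted p up to 0.233. SLC43A3, known as a purine nucleobase carrier, was higher in clone B than in clone A by 1.08 ± 0.29 in normoxia, and other genes' exons cover 29.9% of its exon length. SLC16A10, a carrier of aromatic amino acids, had 130 counts in all.

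The carriers of glutamate and aspartate were low throughout. SLC1A2, a glutamate importer, was called in 0 of the 21 comparisons by edgeR, and in 2 of them at an unadjusted p under 0.05, with all libraries in the fit, and its group means were 0.348 to 0.915 CPM. DESeq2, run on 16 of them, gave 0 calls. With only the libraries compared in the fit, edgeR called it in hypoxia in clone B (1.11, adjusted p = 0.0361) and in TIFM in clone A (−1.20, adjusted p = 0.0378). The TIFM change in clone A was also called without clone A hypoxia replicate 1 (−1.34, adjusted p = 0.0487), and the difference of clone B from parental cells in hypoxic TIFM without parental hypoxic TIFM replicate 3 (1.66, adjusted p = 0.0283). SLC1A1 had 11 counts and SLC1A3 had 105 over all libraries, and neither was tested.

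Of the lysosomal members and their relatives, SLC38A9, the arginine sensor of mTORC1 on the lysosome, had 46.6, 36.4 and 30.02 CPM in TIFM, 27.5, 25.1 and 25.2 CPM in hypoxia and 24.4, 24.6 and 25.05 CPM in normoxia in clone A. It had 30.4, 27.9 and 30.7 CPM in TIFM, 24.99, 22.96 and 26.5 CPM in hypoxia and 23.8, 20.3 and 21.4 CPM in normoxia in clone B. Parental cells had 26.6, 24.02 and 28.5 CPM in TIFM, 20.4, 22.2 and 20.2 CPM in hypoxia and 14.2, 14.9 and 17.01 CPM in normoxia. Normoxic libraries of both clones exceeded all parental ones, by 0.68 ± 0.12 in clone A and by 0.51 ± 0.12 in clone B. Hypoxia raised it by 0.45 ± 0.12 in parental cells, and TIFM by 0.54 ± 0.12 in clone A (lost with only the libraries compared in the fit, adjusted p up to 0.055) and 0.33 ± 0.12 in parental cells (lost on leaving out any 1 of 4 of the 6 libraries, adjusted p up to 0.121).

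SLC38A10 moved the other way in TIFM. It had 37.1, 55.5 and 55.5 CPM in TIFM, 107, 96.97 and 97.2 CPM in hypoxia and 111, 102 and 101 CPM in normoxia in clone A. In clone B the values were 46.3, 49.9 and 48.4 CPM in TIFM, 99.99, 91.4 and 88.1 CPM in hypoxia and 96.7, 102 and 94.2 CPM in normoxia. Parental cells had 68.1, 86.9 and 66.4 CPM in TIFM, 103, 103 and 108 CPM in hypoxia and 105, 108 and 91.4 CPM in normoxia. All TIFM libraries lay below the hypoxic ones of their genotype, with changes of −1.02 ± 0.12 in clone A, −0.95 ± 0.12 in clone B and −0.51 ± 0.12 in parental cells. SLC38A7, the lysosomal glutamine exporter, fell in TIFM, with a change of −0.95 ± 0.15 in clone A, −0.88 ± 0.14 in clone B and −0.50 ± 0.14 in parental cells. The proton-coupled carrier SLC36A1 was lower in normoxia than in parental cells, with a difference of −0.60 ± 0.14 in clone A and of −0.78 ± 0.14 in clone B. Hypoxia lowered it in parental cells, with a change of −0.62 ± 0.14. SLC36A4, also of the proton-coupled family, rose in hypoxia by 0.86 ± 0.14 in clone A, 0.69 ± 0.14 in clone B and 0.81 ± 0.14 in parental cells, with group means of 85.8 to 98.4 CPM in hypoxia, against 47.2 to 60.3 CPM in normoxia.

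Other genes of amino acid transport and its control were counted beside the members. Of 21 tested genes of the amino acid response, such as ASNS, which makes asparagine, and TRIB3, an inhibitor of ATF4, hypoxia raised 2 and lowered 1 in clone A, raised 4 and lowered 0 in clone B, and raised 13 and lowered 0 in parental cells. Their hypoxia response was below the parental one for 9 genes in clone A and for 7 in clone B, and above it for 0 in either, also at an unadjusted p under 0.05 with edgeR. TIFM raised 15 and lowered 2 in clone A, raised 14 and lowered 1 in clone B, and raised 18 and lowered 0 in parental cells. In normoxia 17 were higher and 0 lower in clone A, and 14 were higher and 1 lower in clone B. ASNS averaged 589 ± 17.9 CPM in clone A, 244 ± 3.29 CPM in clone B and 100.4 ± 13.3 CPM in parental cells in normoxia, differences from parental cells of 2.55 ± 0.13 for clone A and 1.28 ± 0.13 for clone B. Hypoxia raised ASNS by 1.63 ± 0.13 in parental cells, while its values of −0.17 ± 0.12 in clone A and of 0.08 ± 0.12 in clone B did not pass, and the responses differed from the parental one by a called −1.80 ± 0.18 and −1.55 ± 0.18. Of 11 tested plasma membrane amino acid transporters outside the set, TIFM raised 7 and lowered 2 in clone A, raised 6 and lowered 2 in clone B, and raised 6 and lowered 2 in parental cells. SLC7A11, the cystine and glutamate exchanger that also pairs with SLC3A2, averaged 492 ± 212 CPM in TIFM and 116 ± 37.8 CPM in hypoxia in clone A, a change of 2.09 ± 0.25, with changes of 2.98 ± 0.26 in clone B and 2.23 ± 0.25 in parental cells. Of 7 lysosomal amino acid exporters, TIFM raised 3 and lowered 1 in clone A, raised 0 and lowered 1 in clone B, and raised 1 and lowered 1 in parental cells. Of 11 mitochondrial amino acid carriers it raised 7 and lowered 3 in clone A, raised 1 and lowered 4 in clone B, and raised 1 and lowered 3 in parental cells. Of 18 genes that signal amino acids to mTORC1 it raised 9 and lowered 7 in clone A, raised 8 and lowered 4 in clone B, and raised 4 and lowered 1 in parental cells. At an unadjusted p under 0.05, edgeR found 1 amino acid response gene lower in hypoxia in clone B and 1 lysosomal exporter higher in TIFM in clone B, and 0 in the other directions given here as 0. These counts stand beside the shares of all genes called that are given above for each comparison.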

How the data were processed

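The authors deposited raw counts of reads per gene for polyA RNA. HISAT2, featureCounts and the GRCh38 genome are named per the submitters' processing notes; not given in the sources used here were versions, strand setting and gene annotation. Without a known strand setting, reads of overlapping genes cannot be assigned with certainty. Symbols and exons came from GENCODE 29 on GRCh38. The 27 libraries went into 1 edgeR 4.0.16 fit in R 4.3.3: filterByExpr by group (minimum count 10, minimum total 15), TMM factors, a coefficient for each of the 9 groups, robust quasi-likelihood F tests and Benjamini-Hochberg adjustment over the 13943 tested genes at 0.05. SE is the size of the log2 change divided by the square root of F. The test was also tried on counts simulated from the gene means with the same dispersion for all genes and groups. Differences in spread between groups were therefore not simulated. Comparisons were 16 planned contrasts and 5 added between the clones. Alternatives were DESeq2 1.42.0, RLE factors, no low-count filter, only the libraries compared, a replicate block and leaving out each library. No pair of replicate libraries agreed within sampling noise (chi-square per gene 4.6 to 219). The members and gene lists were chosen with earlier results of these data known. All 32 members are named; values in every library are given for the 14 that averaged at least 5 CPM in a group and were called in at least 6 of the 16 comparisons or in both clones' hypoxia differences.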

Additional observations from a re-analysis of the deposited data

Results flagged for a closer look

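Members whose response to hypoxia or to TIFM differed between 2 genotypes, by a direct test of the difference with edgeR, are gathered here as log2 differences. The hypoxia response of clone A minus that of parental cells was −1.03 for SLC1A4, −0.997 for SLC6A6, −0.63 for SLC7A1 and −0.85 for SLC7A5. The same difference in clone B was −0.79 for SLC1A4, −1.50 for SLC6A6, −1.20 for SLC6A9 and −0.50 for SLC7A1. Members called were 14.8% of those tested in each clone, against 6.23% of all genes in clone A and 4.73% in clone B. The calls of SLC6A6 and SLC7A5 in clone A and of SLC1A4 and SLC7A1 in clone B were lost on leaving out single libraries, as given above.

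The TIFM response of clone A exceeded that of parental cells by 0.86 for SLC1A5, 1.86 for SLC3A2, 0.46 for SLC7A1, 1.19 for SLC7A5, 0.66 for SLC7A6 and 1.31 for SLC43A2. It differed by −1.23 for SLC6A9, −1.90 for SLC7A2, −1.52 for SLC38A4 and −0.52 for SLC38A10. In clone B the difference from parental cells was −0.66 for SLC1A4, −1.80 for SLC7A2, 0.72 for SLC7A6 and −1.25 for SLC38A5. Members called were 37% of those tested in clone A, against 38.9% of all genes, and 14.8% in clone B, against 10.4%. Calls lost on leaving out single libraries included those of SLC7A6 in both clones and of SLC38A5 in clone B, as given above. In clone B 1 to 4 calls remained in these fits (4 as reported), so SLC1A4 or SLC7A2 was also lost in some.

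The TIFM response of clone B minus that of clone A was −1.05 for SLC1A5, −1.41 for SLC3A2, −0.97 for SLC7A5 and −1.27 for SLC38A5. It was 0.70 for SLC6A9, 1.09 for SLC6A15, 0.53 for SLC36A4, 0.74 for SLC38A1, 1.35 for SLC38A2 and 1.89 for SLC38A4. In this added comparison 40% of all genes tested were called. It was not refitted under the alternatives or with single libraries left out. Clone A in TIFM was the group with the widest spread between libraries (29.3% biological coefficient of variation), and its part in these differences was not tested.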

How the results depend on the processing

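Of the 187 changes of members called in the 16 planned comparisons, 129 passed under every alternative and every left-out library, 52 were lost without at least 1 library and 27 under at least 1 other alternative. None of the 187 changed sign in these fits. With only the libraries compared in the fit, 9 of the 27 tested members were called for hypoxia in clone B (5 as reported), against 4242 of 13012 genes. For clone A against parental in hypoxic TIFM 12 were called (19 as reported), against 5402 of 12800 genes. For the hypoxia response minus parental 8 were called in each clone (4 each as reported). Of these, 1 was higher and 7 lower in clone A, and 2 were higher and 6 lower in clone B. Of all genes, 2656 of 13374 were called there in clone A and 2592 of 13549 in clone B. With no low-count filter, 2 members were called for the TIFM response of clone B minus parental (4 as reported), against 1226 of 18070 genes. Leaving out 1 library at a time gave 2 to 4 calls for hypoxia in clone B (5 as reported), 8 to 11 for clone B against parental in normoxia (13 as reported), 2 to 5 and 2 to 4 for the hypoxia responses of clone A and clone B minus parental, and 1 to 4 for the TIFM response of clone B minus parental. Of all genes, these fits called 527 to 874 for hypoxia in clone B, against 1297 with all libraries. For clone B against parental in normoxia they called 2974 to 3184, against 3697. For the hypoxia responses minus parental they called 613 to 1005 in clone A (869 with all libraries) and 441 to 585 in clone B (660). For the TIFM response of clone B minus parental they called 933 to 1456 (1450). Each of these fits tested 14128 to 14159 genes. The SLC6A9 change in TIFM in clone A, not called at 0.09, changed sign without clone A hypoxia replicate 2 or 3 or clone A TIFM replicate 2 (−0.058 to 0.39 over the left-out libraries). Fits with fewer libraries or genes also have other spread estimates, and the cause of each lost call was not tested. Replicate numbers did not pair the libraries (no comparison had all 3 correlations over 0.1). With the replicate block, 1 call was lost and 2 gained, and hypoxia in clone B had 5 members called, as without it, against 1446 of 13943 genes. With only the libraries compared in the fit 24 calls were lost and 35 gained, the most of these alternatives. DESeq2 lost 2 calls and gained 5, and RLE factors lost 1 and gained 3. With 3 libraries a group, members with low group means such as SLC7A8 (0.0997 to 1.10 CPM) and SLC38A3 (0.0223 to 2.34 CPM) have wide errors.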
